A study of Saccharomyces cerevisiae with 2 samples.

Results

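The genes described here are 42 genes of peroxisome biogenesis and peroxisomal fatty acid beta-oxidation in Saccharomyces cerevisiae, chosen by name from the 7126 rows of the expression table. The table itself gave the gene name for 25 of them, and the other 17 were found by their gene ID, which the RefSeq annotation of the R64 reference genome pairs with the symbol. They divide into 25 peroxins (PEX genes), which build and maintain the organelle, and 17 enzymes and carriers, which work inside it or in its membrane. Their expression was compared in strain BL03-D-4 after 24 h of growth in YPM, with 1 library, and in YPD2, with 1 library. BL03-D-4 derives from BY4742, a haploid laboratory strain of mating type alpha. In both cultures GAL80 was replaced by CrtB, CrtI and CrtE for carotenoid synthesis under HSP26 promoters, a truncated HMG-CoA reductase was expressed behind the Cit1 promoter, and ALD6 was deleted. YPD2 holds tryptone, glucose and yeast extract, and the labels write it as YPD. YPM holds the same amounts of these, with yeast extract of another manufacturer, and phosphate and sulfate salts and a trace metal solution besides. The libraries address how transcripts of this strain differ between these media, which were compared for carotenoid accumulation. All differences below rest on a single strain and a single library of each medium, so the spread between cultures is unknown and no p-value is given.

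In yeast, fatty acids are broken down by beta-oxidation in the peroxisome and not in the mitochondrion. Acyl-CoA oxidase passes electrons to oxygen and forms hydrogen peroxide, which catalase A removes, and each round of the cycle releases acetyl-CoA, which leaves the organelle as acetylcarnitine or through the glyoxylate cycle. The enzymes are made in the cytosol and imported in folded form by receptors that dock at the membrane, release their cargo, are tagged with ubiquitin and return. Glucose represses the genes of the enzymes. When glucose is gone and fatty acids are present, the transcription factors Oaf1 and Pip2 bind together to the oleate response element. Its outer parts are a CGG and a CCG triplet held apart by a spacer, and Adr1 acts with both factors.

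The 500 bases before the start codon of each gene were therefore searched in the R64 genome for CGG and CCG with 15 to 18 bases between them, a pattern that reads the same on both strands. The pair was found before 14 of the 17 enzyme and carrier genes (82.4%) and before 5 of the 25 peroxin genes (20%), against 531 of all 6006 protein-coding genes (8.84%). The pattern was picked because the element is known for genes of this pathway, so these shares are a description and no independent finding. The stretches before the genes of the main pathway, of catalase A and of the isomerase Eci1 are shown as examples. They were picked among genes with lower values in YPM by the limit used for all genes. The pairs before DCI1, SPS19, FAA2, LPX1 and IDP3, which were also lower by that limit, are not shown. Nor are those before PCS60, TES1, PXA2, MDH3 and the 5 peroxin genes, which were not lower by it. The stretches shown were read on the strand of the gene from R64, and the triplets of the pair are in capitals. They lie at chrIV:969854-969901 (minus strand) for CTA1, at chrVII:107834-107880 and chrVII:107871-107917 (plus strand) for POX1, at chrXI:457325-457370 and chrXI:457293-457337 (minus strand) for FOX2, at chrIX:41598-41644 (minus strand) for POT1 and at chrXII:707179-707225 (minus strand) for ECI1. None of these stretches overlaps an annotated gene.
CTA1: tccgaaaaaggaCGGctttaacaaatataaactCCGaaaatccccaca
POX1, distal: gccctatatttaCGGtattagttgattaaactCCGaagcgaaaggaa
POX1, proximal: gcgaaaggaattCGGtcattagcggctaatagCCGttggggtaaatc
FOX2, distal: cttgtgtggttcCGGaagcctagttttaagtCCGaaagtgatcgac
FOX2, proximal: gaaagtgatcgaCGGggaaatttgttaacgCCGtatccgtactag
POT1: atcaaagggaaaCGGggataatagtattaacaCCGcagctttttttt
ECI1: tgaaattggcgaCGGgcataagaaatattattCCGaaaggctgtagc

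Of the 17 pairs before enzyme and carrier genes, 14 had a spacer of 17 or 18 bases, and POX1, FOX2 and LPX1 had a second pair. The pair of CTA1 begins 209 bases before the start codon, and those of all 14 genes begin between 130 and 415 bases before it. Only the triplets and their distance were searched, so a pair need not be a full oleate response element. It is a match of letters and not a measured binding site. Of the 17 pairs, 3 overlap a neighbouring gene when their flanking bases are included, at FAA2 (BUD25), PCS60 (TDP1) and the first of LPX1 (WHI5). The pair was absent from this window of CAT2, PXA1 and ANT1.

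Expression was given as TPM, a transcript abundance that is corrected for length and scaled to 1 fixed total in every library, so that levels of different genes can be compared within a library. TPM holds no read numbers, so the sequencing depth cannot be given. The listed values summed to 925918 TPM in YPM against 937091 TPM in YPD2, so the values as listed do not reach an equal total in both libraries. The 6 genes that the genotype or the parent strain lacks (GAL80, ALD6, HIS3, LEU2, LYS2 and URA3), HIS3 only in part, were listed at 0 in both libraries. Of the alpha genes, MATALPHA1 was listed at 22.05 TPM in YPM against 22.68 TPM in YPD2. MATALPHA2 was listed at 208 TPM in YPM against 185 TPM in YPD2, a row whose value equals that of the silent copy at HML. Differences are log2 ratios, YPM over YPD2, of TPM + 1, a scale on which the change of a weakly expressed gene appears too small. A gene was called higher or lower at a log2 ratio of 1 or more in size. The 6350 genes whose mean reached 1 TPM were compared, and all 42 genes were among them. Their lowest mean was 13.8 TPM. Over all 6350 genes, 8.43% were called, 3.28% as higher and 5.15% as lower, and the median log2 ratio was -0.13. After YPM was rescaled so that the median log2 ratio of genes averaging 10 TPM or more was 0, 4.01% were called higher and 4.05% lower, and each of the 42 genes kept its call.

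Most of the enzymes and carriers were called lower in YPM, whereas none of the 25 peroxins was called in either direction. The share with a log2 ratio below 0 was similar, at 88.2% of the enzymes and carriers and 88.0% of the peroxins, against 63.1% of all genes. Of the 17 enzymes and carriers, 11 (64.7%) were called lower and 1 was called higher, against 5.15% and 3.28% of all genes. Their median log2 ratio was -1.51, against -0.13 for all genes. Of the 25 peroxins, 0 were called higher and 0 were called lower, and their median was -0.26. With 1 library per medium, no test of the difference between both classes was possible. Summed over the class, the enzymes and carriers stood at 1939 TPM in YPM against 4177 TPM in YPD2, a ratio of 0.464. The peroxins summed to 1696 TPM in YPM against 2099 TPM in YPD2, a ratio of 0.808. The enzymes and carriers thus held 0.209% of all listed TPM in YPM and 0.446% in YPD2, and the peroxins held 0.183% in YPM and 0.224% in YPD2.

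**Figure D1:**
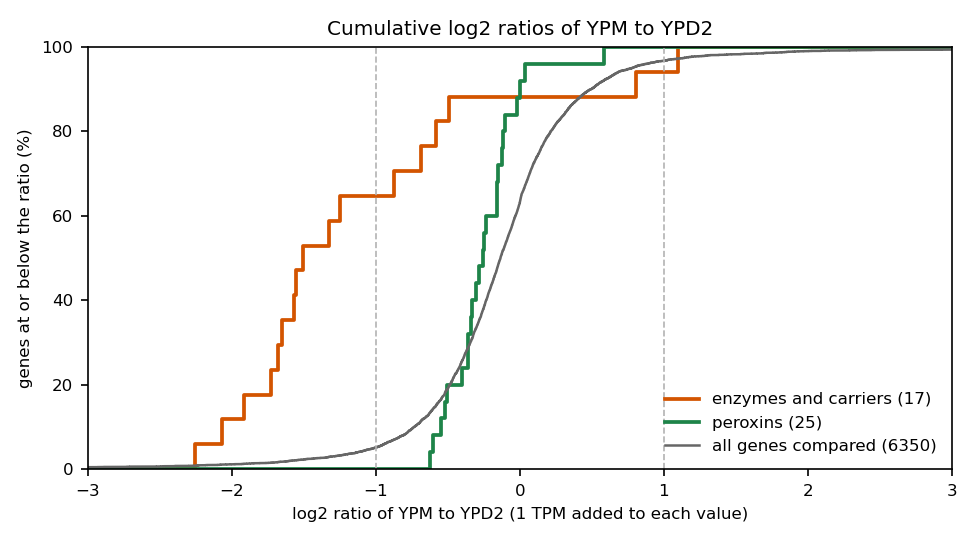
Cumulative share of genes (%) by log2 ratio of YPM to YPD2, for 17 enzymes and carriers, 25 peroxins and all 6350 genes compared; dashed lines mark log2 ratios of -1 and 1. The curve of the enzymes and carriers has reached 64.7% at -1, while every peroxin lies between -0.63 and 0.59.

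The genes of the main beta-oxidation cycle were all called lower in YPM. POX1 (YGL205W, chromosome VII, 108158 to 110404), the acyl-CoA oxidase of the first step, was listed at 37.8 TPM in YPM against 162 TPM in YPD2, a log2 ratio of -2.07. FOX2 (YKR009C, chromosome XI, 454352 to 457054), the multifunctional enzyme of the hydratase and dehydrogenase steps, was listed at 75.7 TPM in YPM against 240.4 TPM in YPD2, a log2 ratio of -1.65. POT1 (YIL160C, chromosome IX, 40191 to 41444), the thiolase that releases acetyl-CoA, was listed at 162 TPM in YPM against 388 TPM in YPD2, a log2 ratio of -1.25. The order of the levels was the same in both libraries, with the oxidase lowest and the thiolase highest, and the log2 ratios ran in that order as well.

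The auxiliary enzymes bring the double bonds of unsaturated fatty acids into a form that the main cycle can use, and all 3 were called lower. ECI1 (YLR284C), the enoyl-CoA isomerase, was listed at 66.6 TPM in YPM against 215 TPM in YPD2, a log2 ratio of -1.68. SPS19 (YNL202W), the dienoyl-CoA reductase, was listed at 122 TPM in YPM against 307 TPM in YPD2, a log2 ratio of -1.32. DCI1 (YOR180C), a paralog of ECI1 whose assignment as dienoyl-CoA isomerase is disputed, was listed at 21.8 TPM in YPM against 63.8 TPM in YPD2, a log2 ratio of -1.51. The paralogs differed in level more than in their change. ECI1 stood at 3.06 times the TPM of DCI1 in YPM and 3.37 times in YPD2.

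The genes that prepare or cleave acyl groups went both ways. LPX1 (YOR084W), a lipase of the peroxisomal matrix, was called lower, with 42.9 TPM in YPM against 165 TPM in YPD2, a log2 ratio of -1.91. FAA2 (YER015W), which activates medium-chain fatty acids to their CoA esters, was also called lower, with 36.7 TPM in YPM against 111 TPM in YPD2, a log2 ratio of -1.57. FAA2 overlaps BUD25 in R64, and since the use of strand is not given in the sources used here, reads from the overlap cannot be assigned with certainty. TES1 (YJR019C), the acyl-CoA thioesterase, was not called, with 76.6 TPM in YPM against 115 TPM in YPD2, a log2 ratio of -0.58. PCS60 (YBR222C), an oxalyl-CoA synthetase at the peroxisome, had the opposite sign without being called, with 349 TPM in YPM against 199 TPM in YPD2, a log2 ratio of 0.80. It held place 2 among the levels of the 42 genes in YPM and place 9 in YPD2.

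Among the carriers of the peroxisomal membrane, none was called lower. ANT1 (YPR128C, chromosome XVI, 791218 to 792204), which exchanges adenine nucleotides so that ATP for fatty acid activation reaches the matrix, was the only one of the 42 genes called higher. It was listed at 74.9 TPM in YPM against 34.5 TPM in YPD2, a log2 ratio of 1.10, close to the limit. The subunits of the transporter for long-chain fatty acids, PXA1 (YPL147W) and PXA2 (YKL188C), were not called. PXA1 was listed at 98.4 TPM in YPM against 139 TPM in YPD2, a log2 ratio of -0.49, and PXA2 at 40.3 TPM in YPM against 74.6 TPM in YPD2, a log2 ratio of -0.87. Although both proteins form a heterodimer, PXA1 stood at 2.44 times the TPM of PXA2 in YPM and 1.86 times in YPD2.

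The lowest log2 ratio of the 42 genes was that of CTA1 (YDR256C, chromosome IV, 968133 to 969680), catalase A. It was listed at 112 TPM in YPM against 540 TPM in YPD2, a log2 ratio of -2.26. It thus held rank 1323 among all rows of the table in YPM and rank 282 in YPD2. The catalase stood at 2.96 times the TPM of the peroxide-forming oxidase POX1 in YPM and at 3.34 times in YPD2. CAT2 (YML042W), the carnitine acetyltransferase of peroxisomes and mitochondria, was the most abundant of the 42 genes in YPD2 and was called lower, with 201 TPM in YPM against 668 TPM in YPD2, a log2 ratio of -1.73. IDP3 (YNL009W), the isocitrate dehydrogenase that supplies NADPH for the reductase Sps19, was called lower with 55.6 TPM in YPM against 165 TPM in YPD2, a log2 ratio of -1.55. MDH3 (YDL078C), the malate dehydrogenase that returns NADH to NAD, was not called, with 366 TPM in YPM against 590.1 TPM in YPD2, a log2 ratio of -0.69. It was the most abundant of the 42 genes in YPM.

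**Figure D2:**
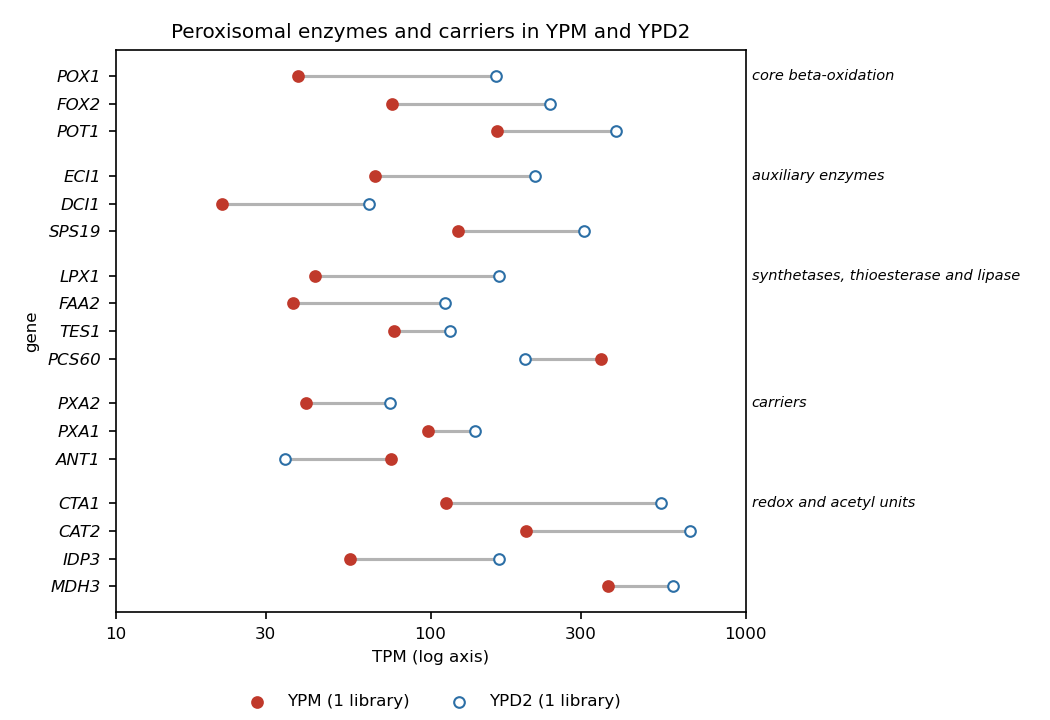
TPM (log axis) of the 17 enzymes and carriers in 1 YPM library (filled) and 1 YPD2 library (open), grouped by role and ordered by log2 ratio within each group; a line joins both values of a gene. The YPM value is the lower one for 15 genes, and ANT1 and PCS60 are the exceptions.

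By role, the sums differed most in the main cycle, the auxiliary enzymes and the redox genes. The core cycle summed to 276 TPM in YPM against 790 TPM in YPD2, a ratio of 0.349, and the auxiliary enzymes to 210 TPM in YPM against 586 TPM in YPD2, a ratio of 0.359. The genes for peroxide, NADPH, NADH and acetyl units summed to 734 TPM in YPM against 1963 TPM in YPD2, a ratio of 0.374. The synthetases, thioesterase and lipase differed less, at 505 TPM in YPM against 590.1 TPM in YPD2, a ratio of 0.856, with PCS60 alone at 349 TPM of the sum in YPM. The carriers stood at a ratio of 0.861.

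**Figure D3:**
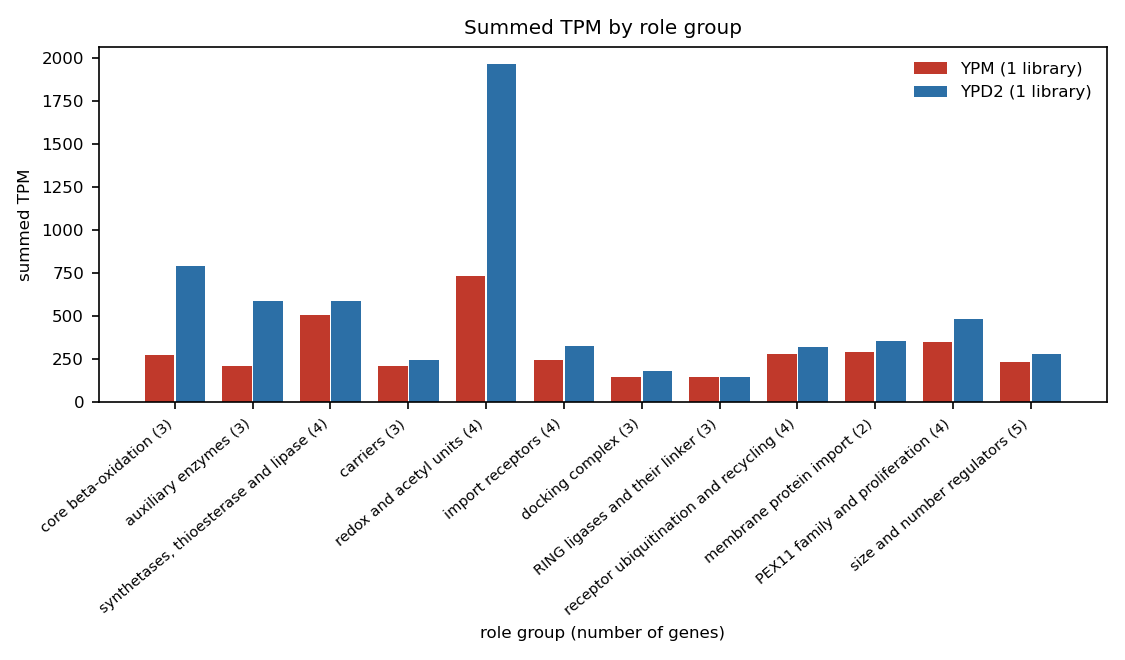
Summed TPM of each role group in 1 YPM library (left bar) and 1 YPD2 library (right bar), with the number of genes in brackets. The widest gap is that of the redox and acetyl unit genes, at 734 TPM in YPM against 1963 TPM in YPD2, while the ratio of both bars in the peroxin groups runs from 0.716 for the PEX11 family to 1.02 for the RING ligases and their linker.

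The peroxins lay close to the bulk of the genes. Of the 25, 22 had a log2 ratio below 0 (88.0%), against 63.1% of all genes, and they ran from -0.63 to 0.59. After the same rescaling of YPM, 18 of 25 peroxins were below 0, against 50.8% of all genes, and the signs of PEX2, PEX14, PEX15 and PEX31 turned positive. The median of the peroxins was then -0.13 and that of the enzymes and carriers was -1.38. Levels of peroxins ran from 13.2 TPM to 147 TPM in YPM and from 14.5 TPM to 206 TPM in YPD2, with PEX31 lowest in both libraries.

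Among the receptors that carry matrix enzymes to the membrane, PEX18 (YHR160C), a co-receptor of the PEX7 route, had the lowest log2 ratio at -0.60, with 107 TPM in YPM against 163 TPM in YPD2. Its partly redundant partner PEX21 stood at -0.52, with 34.9 TPM in YPM against 50.6 TPM in YPD2. PEX7, the receptor for an N-terminal signal that the thiolase Pot1 carries, was listed at 38.8 TPM in YPM against 38.7 TPM in YPD2, a log2 ratio of 0.00. PEX5, the receptor for the C-terminal signal of most matrix enzymes, was listed at 63.7 TPM in YPM against 77.6 TPM in YPD2, a log2 ratio of -0.28. PEX7 thus had nearly equal values in both libraries, and its co-receptors had lower values in YPM without being called.

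In the docking complex, PEX13 was listed at 47.7 TPM in YPM against 68.1 TPM in YPD2, a log2 ratio of -0.50, and PEX14 at 64.1 TPM in YPM against 69.7 TPM in YPD2, a log2 ratio of -0.12. PEX17 lay between them at -0.34. Among the RING ligases that ubiquitinate the receptors and their linker, PEX10 (YDR265W) had the highest log2 ratio of the 25 peroxins at 0.59, with 46.2 TPM in YPM against 30.4 TPM in YPD2. PEX8, which links docking and RING proteins, had the lowest log2 ratio of this group at -0.26, with 38.2 TPM in YPM against 45.9 TPM in YPD2, and PEX2 stood at -0.10. PEX2 and PEX14 each overlap a dubious open reading frame with a row of its own. YJL211C, which overlaps PEX2, was listed at 50.8 TPM in YPM against 67.6 TPM in YPD2, and YGL152C, which overlaps PEX14, at 8.01 TPM in YPM against 12.6 TPM in YPD2, so that the division of reads is uncertain for both peroxins.

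The genes of receptor recycling differed little. PEX4, the ubiquitin-conjugating enzyme, had the lowest log2 ratio of them at -0.33, with 87.2 TPM in YPM against 110 TPM in YPD2, and PEX15, the membrane anchor of Pex6, had the highest log2 ratio at -0.02, with 64.9 TPM in YPM against 65.8 TPM in YPD2. The ATPase PEX6 stood at -0.31 and PEX22, the anchor of Pex4, at -0.16. Of the genes that insert membrane proteins, PEX19, the soluble chaperone, was listed at 147 TPM in YPM against 189 TPM in YPD2, a log2 ratio of -0.36, and PEX3, its docking partner, at 147 TPM in YPM against 164 TPM in YPD2, a log2 ratio of -0.16. PEX19 and PEX3 were the most abundant peroxins in YPM.

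The genes of peroxisome division included the lowest log2 ratio of the 25 peroxins, which was not called. PEX34 (YCL056C), which acts with the PEX11 family in peroxisome number, was listed at 109 TPM in YPM against 169 TPM in YPD2, a log2 ratio of -0.63. PEX11 (YOL147C), which bends the membrane in proliferation and has the CGG and CCG pair in its window, was the most abundant peroxin in YPD2, with 141 TPM in YPM against 206 TPM in YPD2, a log2 ratio of -0.55. The paralogs PEX25 and PEX27 were not called, with PEX25 at 47.6 TPM in YPM against 61.4 TPM in YPD2, a log2 ratio of -0.36, and PEX27 at 50.6 TPM in YPM against 49.2 TPM in YPD2, a log2 ratio of 0.04. The genes for size and number, PEX28, PEX29, PEX30, PEX31 and PEX32, all lay below 0, from PEX30 with 66.9 TPM in YPM against 88.7 TPM in YPD2, a log2 ratio of -0.40, to PEX31 with 13.2 TPM in YPM against 14.5 TPM in YPD2, a log2 ratio of -0.12.

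**Figure D4:**
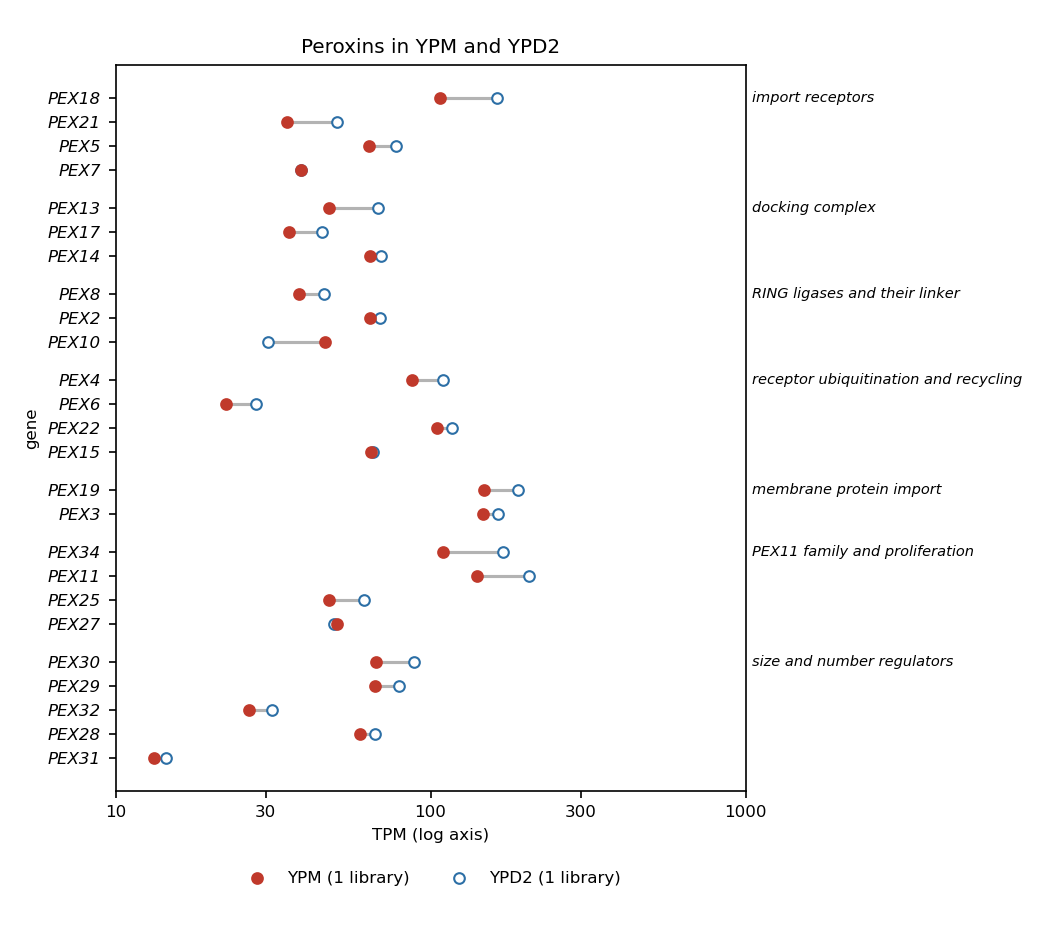
TPM (log axis) of the 25 peroxins in 1 YPM library (filled) and 1 YPD2 library (open), grouped by role and ordered by log2 ratio within each group; a line joins both values of a gene. No peroxin reaches a log2 ratio of 1 in either direction, and PEX10 has the largest shift toward YPM, at 0.59.

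The pair of CGG and CCG can be set beside these values, again as a description only. It was present before 10 of the 11 enzyme and carrier genes called lower (90.9%), CAT2 being the exception, and before 4 of the 6 that were not (66.7%), namely PCS60, TES1, PXA2 and MDH3. ANT1, the gene called higher, and PXA1 had none. The 5 peroxins with the pair were PEX5, PEX6, PEX11, PEX13 and PEX25, and their log2 ratios ran from -0.55 to -0.28. Outside the 42 genes, the median log2 ratio was -0.14 for 489 genes with the pair and -0.13 for 5224 genes without it, and the share called was larger with the pair in both directions, at 6.13% with it and 3.69% without it for lower, and at 4.29% with it and 2.34% without it for higher. TTGGAG, a core sequence of Adr1 sites searched on both strands, was found before 7 of the 17 enzyme and carrier genes (41.2%). These were 6 of the 11 called lower (54.5%) and 1 of the 6 not called lower (16.7%). The same sequence was found before 6 of the 25 peroxins (24.0%), against 18.5% of all protein-coding genes. GCGGGG, the core of Mig1 sites, was found on either strand before 5.78% of all genes and before 1 of the 11, which was CAT2. It was found before 0 of the 6 not called lower and before 1 of the 25 peroxins (4.0%), which was PEX13.

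The regulators of the pathway were not called. OAF1 was listed at 35.8 TPM in YPM against 38.5 TPM in YPD2, a log2 ratio of -0.10, and its partner PIP2 at 38.6 TPM in YPM against 48.0 TPM in YPD2, a log2 ratio of -0.31. ADR1 was listed at 104 TPM in YPM against 138 TPM in YPD2, a log2 ratio of -0.40. Of all 7 regulators, which include OAF3, SNF1, CAT8 and MIG1, 0 were called, against 8.43% of all genes, and they ran from -0.52 for OAF3 to 0.33 for MIG1. These are transcript levels and do not measure the activity of the proteins.

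Of 22 further genes of peroxisomes or neighbouring steps, 5 were called lower and 0 higher, against 5.15% and 3.28% of all genes. This list was chosen with earlier results of these data known, so the count is a description and no independent finding. PEX9 (YMR018W), an import receptor related to Pex5, was the only peroxin among them to be called, on low levels of 5.80 TPM in YPM against 16.8 TPM in YPD2, a log2 ratio of -1.39. MLS1, the malate synthase of the glyoxylate cycle, was listed at 615 TPM in YPM against 1811 TPM in YPD2, a log2 ratio of -1.56. The others act on carnitine, which carries acetyl units to the mitochondrion. CRC1, the mitochondrial carnitine carrier, was listed at 128 TPM in YPM against 806 TPM in YPD2, a log2 ratio of -2.64. YAT1 was listed at 246 TPM in YPM against 919 TPM in YPD2, a log2 ratio of -1.90, and YAT2 at 262 TPM in YPM against 791 TPM in YPD2, a log2 ratio of -1.59. The remaining 17 genes included the fission factor FIS1 at -0.81 and PNC1 at 0.33.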

How the data were processed

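RNA of BL03-D-4 was sequenced from polyA-selected libraries, 1 per medium. The authors estimated expression with RSEM and deposited TPM, and the submitters' processing notes also name HISAT2 and StringTie. Genome build, annotation and use of strand are not given in the sources used here. The column MYPD was taken as YPM, which the labels spell out as modified YPD media, and 4 lines of the table were empty in the copy used. With 1 library per medium no test was run, and TPM gives neither depth nor intervals. Log2 ratios were taken after adding 1 TPM, over rows whose mean reached 1 TPM, and called at 1 or more in size. Every one of the 42 genes may be named by rule, and others only from fixed lists of regulators and neighbouring genes, with values where called. OAF1, PIP2, ADR1, OAF3, MIG1, FIS1, PNC1, YJL211C and YGL152C are given outside that rule and were chosen after their values were seen. Some genes of the second list are not reported here. Members and lists were chosen with earlier results of these data known. Symbols, positions and promoter sequences came from RefSeq R64, which may differ from the authors' reference, and 0 of the 42 coding sequences share a 50-base word with another place there. Alternatives changed the pseudocount, the minimum, the scaling or the rows used. The code that makes the calls was tested on simulated data, which says nothing of the error of these libraries. Software was pandas 2.3.3 and numpy 2.4.6 for values and matplotlib 3.10.9 for plots, under Python 3.11.15.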

Additional observations from a re-analysis of the deposited data

How the results depend on the processing

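The 11 genes called lower, the 1 called higher and the 0 peroxins called kept these counts with a pseudocount of 0.1 or 5 TPM, with no minimum or a minimum mean of 10 TPM, with the median gene set to no change, without the 20 most abundant rows and with protein-coding rows only. The median log2 ratio ran from -1.55 to -1.36 for the enzymes and carriers and from -0.26 to -0.13 for the peroxins. The share of all genes called fell to 5.57% with a pseudocount of 5 TPM, against 8.43% as reported, because that pseudocount shrinks the ratios of low genes. With the median gene of at least 10 TPM at no change, the median of all genes was -0.01, against -0.13 as reported, and 4 peroxins turned from below to above 0. No paired analysis was possible because each medium had 1 library, and no library could be left out.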
